A study of Homo sapiens with 12 samples.

Results

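The 7 genes of the cyclin-dependent kinase (CDK) inhibitors, CDKN1A, CDKN1B, CDKN1C, CDKN2A, CDKN2B, CDKN2C and CDKN2D, were read by 12 of the 45033 features of an expression array. A feature was taken as a member when its RefSeq accession mapped to 1 of these 7 symbols, among 17185 genes that could be named. RNA came from the human colon cancer line HCT116, in 4 groups of 3 arrays. Cells of both genotypes, p53+/+ and p53-/-, received DMSO or INZ at 4 μM and were harvested after 18 hours. HCT116 p53+/+ cells carry wild-type p53, and HCT116 p53-/- cells are a derived line without active p53, so that each genotype is 1 line and other differences between the lines cannot be told apart from that of p53. INZ (inauhzin) is a small molecule that activates p53, and DMSO is the solvent control. Within a group, the labels describe the 3 arrays as biological replicates. Values are log2 of a normalised intensity, and a feature is called dim here when its mean over the 12 arrays lies below that of the median feature, 6.41.

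CDK inhibitors bind the kinases that drive cells from G1 into S phase. Members of the CIP/KIP family (p21, p27 and p57, encoded by CDKN1A, CDKN1B and CDKN1C) bind complexes of CDKs with cyclins. Members of the INK4 family (p16, p15, p18 and p19, encoded by CDKN2A, CDKN2B, CDKN2C and CDKN2D) bind CDK4 and CDK6 and keep them from cyclin D. When these kinases are held back, the retinoblastoma protein stays bound to E2F factors and genes of DNA replication stay low. CDKN1A is the best known arrest gene among the targets of p53.

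Labels were checked on the 218 features that differed between the genotypes with INZ. On 89 of them the other p53+/+ DMSO arrays and the p53-/- DMSO arrays were over 1 log2 unit apart, and the array labelled p53+/+ DMSO replicate 1 lay nearer to the p53+/+ arrays on 82, which does not settle its label. Of all 12 arrays it correlated least with its own group (0.909 to 0.917, against up to 0.975 in the other groups), and p53+/+ INZ replicate 3 reached 0.929 to 0.933. The INZ differences of the member genes in p53+/+ cells, other than the dim CDKN1B and CDKN2B, are given with and without each of these 2 arrays.

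Markers of the labelled colon epithelium had mean log2 intensities of 14.54 for the keratin gene KRT8 and 11.67 for EPCAM, although 3 of 9 (KRT20, VIL1 and CDX1) were dim. Of markers for other cells, 4 of 5 leukocyte genes (all but CD68), 4 of 5 fibroblast genes (all but COL1A1) and 3 of 3 endothelial genes were dim. The summed leukocyte intensity was 235 to 390 in p53+/+ DMSO, 374 to 1060 in p53+/+ INZ, 254 to 348 in p53-/- DMSO and 555 to 612 in p53-/- INZ arrays, and its part in the results was not tested.

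CDKN1A encodes p21, and its feature NM_000389 read 12.99, 13.05 and 13.23 in p53+/+ DMSO, 14.55, 14.55 and 14.86 in p53+/+ INZ, 12.88, 12.63 and 12.44 in p53-/- DMSO and 12.04, 11.61 and 11.68 in p53-/- INZ arrays, as for all such values in the order of replicates 1 to 3. No 2 groups overlapped, and the order from low to high was p53-/- with INZ, p53-/- with DMSO, p53+/+ with DMSO and p53+/+ with INZ. The second CDKN1A feature, NM_078467, read 12.88, 13.38 and 12.91 in p53+/+ DMSO, 14.95, 14.64 and 15.12 in p53+/+ INZ, 12.75, 12.84 and 12.27 in p53-/- DMSO and 12.40, 11.75 and 12.30 in p53-/- INZ arrays. The order of its means was the same, and only the p53-/- groups overlapped. The features differed by -0.63 to 0.31 log2 units on a single array. Both are transcripts of 1 gene and may share probes, so they are not independent measurements.

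Because CDKN1A had the largest response among the members, the 250 bases before its transcription start in the RefSeq promoter table (GRCh38.p14) are shown, with GC boxes (GGGCGG on either strand, overlaps counted), a motif bound by SP1, in capitals.
CDKN1A, chr6:36678464-36678713, + strand: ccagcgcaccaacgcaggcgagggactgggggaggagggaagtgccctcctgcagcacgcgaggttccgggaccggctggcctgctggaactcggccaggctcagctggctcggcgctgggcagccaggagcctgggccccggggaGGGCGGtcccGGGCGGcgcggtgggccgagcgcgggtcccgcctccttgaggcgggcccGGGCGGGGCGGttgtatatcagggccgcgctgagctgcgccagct
This window held 4 GC boxes, of which a pair overlap, and 76.4% of its bases were G or C. A GC box was found in 42.6% of 35116 promoter windows of that length, so it is a common motif. Neither an E2F site (TTTCCCGC or TTTGGCGC on either strand, in 1.93% of windows) nor a p53 half-site (its usual consensus on either strand, in 5.57%) lay in it, and sequence further upstream was not analysed here.

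**Figure D1:**
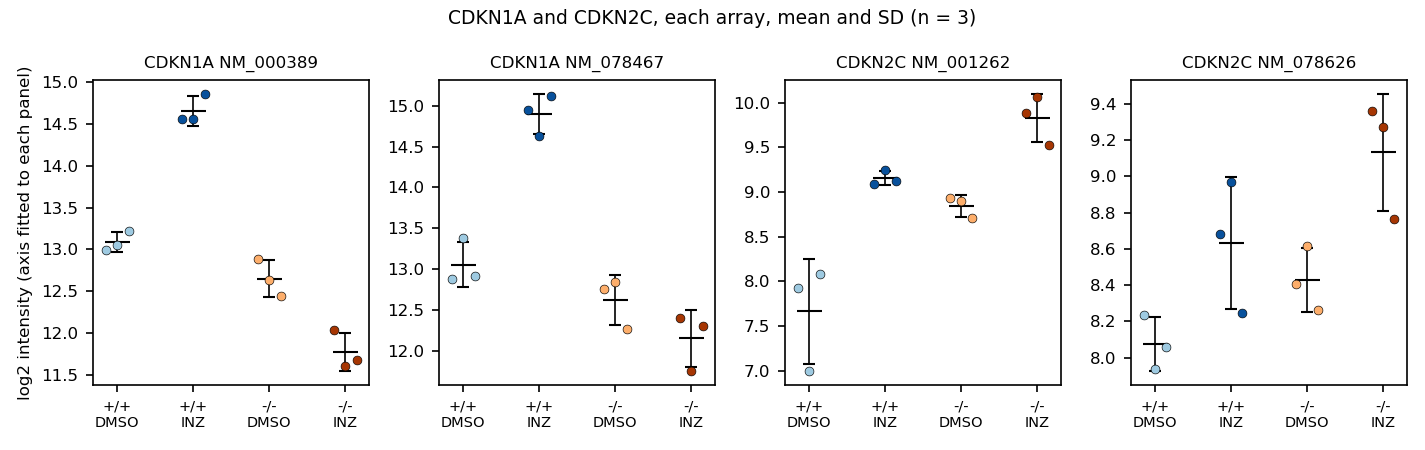
Log2 intensity of both CDKN1A features and both CDKN2C features on each array (points, replicates 1 to 3 from left to right), with the mean and SD of each group (n = 3). The vertical axis is fitted to each panel and does not start at 0. CDKN1A is highest in the p53+/+ INZ arrays and lowest in the p53-/- INZ arrays, while CDKN2C is higher with INZ than with DMSO in both genotypes.

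In p53+/+ cells CDKN1A rose with INZ on both features. NM_000389 went from 13.09 ± 0.12 to 14.65 ± 0.18 (SD, n = 3), a 2.96-fold rise (95% confidence interval, CI, 2.03 to 4.32, adjusted p = 0.0127 by limma over all features). NM_078467 went from 13.05 ± 0.28 to 14.90 ± 0.25, which is 1.85 log2 units (95% CI 1.23 to 2.47). These 2 and a CDKN2C feature were the 3 of 12 member features that rose, beside 0.529% of all features, and 0 of 12 fell, beside 0.333%. Without the array labelled p53+/+ DMSO replicate 1 both calls remained, at log2 differences of 1.52 and 1.76 (adjusted p = 0.0432 and 0.0398), as they did without p53+/+ INZ replicate 3, at 1.47 and 1.74 (adjusted p = 0.0459 and 0.0446). Both were lost without p53+/+ INZ replicate 1, at 1.62 and 1.82 (adjusted p = 0.0512 for each), although the differences hardly moved. With the array labelled p53+/+ DMSO replicate 1 and p53+/+ INZ replicate 3 left out together they were lost too, at 1.42 and 1.65 (adjusted p = 0.0689 and 0.0683), and over 21 alternative settings the adjusted p ranged from 0.000972 to 0.215 for NM_000389. On the linear scale, the p53+/+ INZ arrays read 24033 to 35609, above the 99th percentile of every array (14419 to 15262) and below the highest value of the table, 61942, and the part of such high signal in the fold was not tested. A change in the share of cells that carry the RNA and a change in RNA per cell cannot be told apart in such bulk samples.

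Neither CDKN1A feature passed the test in p53-/- cells. The log2 difference of INZ against DMSO was -0.88 for NM_000389 (95% CI -1.42 to -0.33, adjusted p = 0.115), with every INZ array below every DMSO array. For NM_078467 it was -0.47 (95% CI -1.09 to 0.15, adjusted p = 0.525), with overlap. None of the 12 member features passed in p53-/- cells, beside 1.48% of all features, and 4 of 12 were under an unadjusted p of 0.05, beside 13.6%. The first feature passed under 2 of 21 alternatives, a variance trend (adjusted p = 0.0319) and array weights (0.0344).

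The difference between these effects was 2.44 log2 units for NM_000389 (95% CI 1.68 to 3.21, adjusted p = 0.0465) and 2.32 for NM_078467 (95% CI 1.44 to 3.20, adjusted p = 0.126). So 1 of 12 member features passed this test of the difference in either direction, beside 0.0178% of all features (2 of 12 at an unadjusted p under 0.05, beside 4.71%), and the call rested on every array, as it was lost without any 1 of the 12 (adjusted p 0.0808 to 0.207). Between genotypes with INZ, CDKN1A was 7.36-fold higher in p53+/+ cells on NM_000389 (95% CI 5.05 to 10.7, adjusted p = 0.00011) and 6.73-fold on NM_078467 (4.37 to 10.4, adjusted p = 0.000427), and both calls held in all 21 alternatives. They were the 2 of 12 member features that passed as higher in p53+/+ cells with INZ, beside 0.413% of all features. The groups did not overlap on 3 of 12 features that were higher in p53+/+ cells (CDKN1A and the dim CDKN2B), beside 8.21%, and on 1 that was lower (CDKN2C), beside 7.39%. With DMSO the log2 difference between genotypes was 0.44 (95% CI -0.11 to 0.98, adjusted p = 0.504) and 0.43 (-0.19 to 1.06, adjusted p = 0.568). Neither passed, although the DMSO groups did not overlap on either feature. With DMSO 2 of 12 member features (CDKN1A) lay higher in p53+/+ cells with no overlap, beside 8.77% of all features, and 2 (CDKN2C) lay lower, beside 8.87%, but 0 of 12 passed, beside 0.211%, with 1 of 12 under an unadjusted p of 0.05, beside 12%. The comparisons share their groups, so these values are not separate lines of evidence.

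CDKN1B encodes p27, whose level is known to be set largely by protein degradation. Its 1 feature (NM_004064) lay between 4.86 and 5.73 on all 12 arrays and was dim, so that the RNA of p27 could not be followed here. CDKN1C encodes p57, an imprinted gene, and its feature (NM_000076) read 7.44, 6.30 and 6.07 in p53+/+ DMSO, 7.32, 7.85 and 7.45 in p53+/+ INZ, 6.96, 6.48 and 6.16 in p53-/- DMSO and 7.74, 7.20 and 6.71 in p53-/- INZ arrays. The INZ groups overlapped the DMSO groups in both genotypes, in p53+/+ cells through the array labelled p53+/+ DMSO replicate 1 alone. INZ and DMSO differed by 0.94 log2 units in p53+/+ cells (95% CI 0.11 to 1.77, adjusted p = 0.293) and 0.68 in p53-/- cells (-0.15 to 1.51, adjusted p = 0.481), and neither passed. In p53+/+ cells the difference was 1.36 without the array labelled p53+/+ DMSO replicate 1 (adjusted p = 0.153) and 0.98 without p53+/+ INZ replicate 3 (adjusted p = 0.460), and it ranged from 0.67 to 1.40 over the alternatives.

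**Figure D2:**
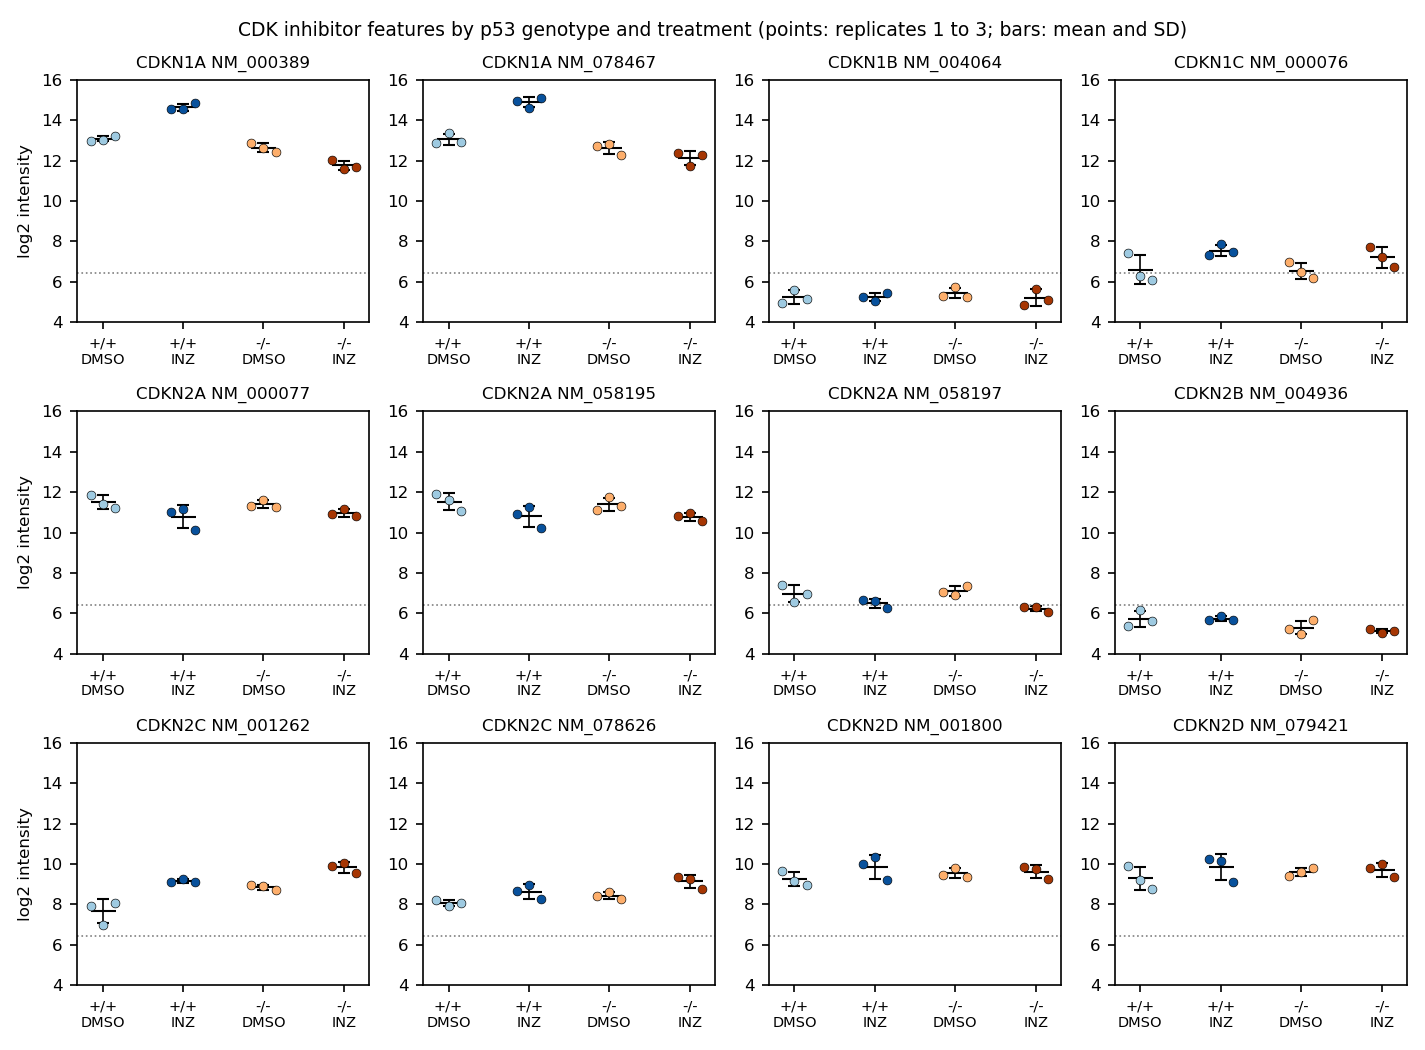
Log2 intensity of the 12 features of CDK inhibitor genes on each array (points, replicates 1 to 3 from left to right in each group), with the mean and SD (n = 3) and, as a dotted line, the median feature at 6.41. Axes run from 4 to 16 in every panel. CDKN1B and CDKN2B lie below the line on all 12 arrays, and the p53+/+ INZ points of CDKN1A stand above those of the other groups.

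Of the INK4 genes, CDKN2C, which encodes p18, carried the only call. Its feature NM_001262 read 7.93, 6.99 and 8.08 in p53+/+ DMSO, 9.10, 9.25 and 9.13 in p53+/+ INZ, 8.94, 8.90 and 8.71 in p53-/- DMSO and 9.88, 10.07 and 9.53 in p53-/- INZ arrays. No 2 groups overlapped, and within each genotype every INZ array lay above every DMSO array. NM_078626 read 8.23, 7.93 and 8.06 in p53+/+ DMSO, 8.68, 8.97 and 8.25 in p53+/+ INZ, 8.41, 8.61 and 8.26 in p53-/- DMSO and 9.36, 9.27 and 8.76 in p53-/- INZ arrays. Here too INZ arrays lay above DMSO arrays in both genotypes, in p53+/+ cells by a narrow margin (8.25 against 8.23). The features disagreed by -0.94 to 0.88 log2 units on a single array, the widest spread among pairs of features of a gene that were close in level.

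The RefSeq table holds 3 promoter windows for CDKN2C, shown because the gene has alternative starts that differ in base composition, again with GC boxes in capitals.
CDKN2C, chr1:50960495-50960744, + strand: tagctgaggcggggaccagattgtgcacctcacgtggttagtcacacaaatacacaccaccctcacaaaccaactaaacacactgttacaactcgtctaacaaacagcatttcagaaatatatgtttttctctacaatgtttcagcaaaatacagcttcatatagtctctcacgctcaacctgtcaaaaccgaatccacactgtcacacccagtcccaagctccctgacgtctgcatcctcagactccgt
CDKN2C, chr1:50968456-50968705, + strand: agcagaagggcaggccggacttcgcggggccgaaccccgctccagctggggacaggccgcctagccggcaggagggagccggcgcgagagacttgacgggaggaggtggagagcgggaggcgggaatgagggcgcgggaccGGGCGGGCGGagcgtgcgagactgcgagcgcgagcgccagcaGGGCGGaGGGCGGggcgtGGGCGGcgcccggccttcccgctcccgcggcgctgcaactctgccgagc
CDKN2C, chr1:50969995-50970244, + strand: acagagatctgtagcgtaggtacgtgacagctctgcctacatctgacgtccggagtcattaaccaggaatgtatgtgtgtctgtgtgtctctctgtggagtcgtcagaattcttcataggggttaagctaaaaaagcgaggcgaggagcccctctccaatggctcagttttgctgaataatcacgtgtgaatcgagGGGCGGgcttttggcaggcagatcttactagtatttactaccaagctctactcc
They held 0, 5 and 1 GC boxes, at 45.6%, 77.2% and 48.8% G or C. Which start each array feature reads was not determined. In all, 6 of the 7 member genes had a window in the table, with 9 windows, and none of these held an E2F site or a p53 half-site as searched for CDKN1A.

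CDKN2C rose with INZ in p53+/+ cells on NM_001262, from 7.67 ± 0.59 to 9.16 ± 0.08 (SD, n = 3), which is 2.81-fold (95% CI 1.79 to 4.41, adjusted p = 0.0375). On NM_078626 the log2 difference was 0.56 (95% CI -0.04 to 1.16, adjusted p = 0.380) and did not pass, nor did it without the array labelled p53+/+ DMSO replicate 1 (0.64) or p53+/+ INZ replicate 3 (0.75). The call on NM_001262 held in 5 of 21 alternatives and was lost without any 1 array other than p53+/+ DMSO replicate 3. Without the array labelled p53+/+ DMSO replicate 1 the log2 difference was 1.62 (adjusted p = 0.0651), and without p53+/+ DMSO replicate 2, the lowest array, it was 1.15 (adjusted p = 0.107). Without p53+/+ INZ replicate 3 it was 1.51 (adjusted p = 0.0991). With that array left out beside the array labelled replicate 1 it was 1.64 (adjusted p = 0.0858). Over all leave-one-out fits it ranged from 1.15 to 1.70, with adjusted p from 0.0212 to 0.107. For p53-/- cells the log2 difference was 0.98 (95% CI 0.33 to 1.63, adjusted p = 0.145) on NM_001262 and 0.70 (0.11 to 1.30, adjusted p = 0.273) on NM_078626.

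Unlike CDKN1A, CDKN2C showed no difference between the genotypes in its INZ effect that passed the test. The interval of that difference ran from -0.41 to 1.43 around 0.51 log2 units on NM_001262 and from -0.99 to 0.70 around -0.15 on NM_078626, so a difference of either sign is not shut out. CDKN2C was lower in p53+/+ than in p53-/- cells in its means on both features and in both treatments, and no such difference passed. With DMSO the log2 difference was -1.18 on NM_001262 (95% CI -1.83 to -0.53, adjusted p = 0.187) and -0.35 on NM_078626 (-0.95 to 0.24, adjusted p = 0.632). With INZ it was -0.67 (-1.32 to -0.02, adjusted p = 0.472) and -0.50 (-1.10 to 0.10, adjusted p = 0.572). CDKN1A and CDKN2C thus lay in opposite order between the genotypes in their means.

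CDKN2A encodes p16 and, from another first exon, ARF, which binds MDM2, and it was read by 3 features. NM_000077 read 11.88, 11.40 and 11.21 in p53+/+ DMSO, 11.03, 11.19 and 10.14 in p53+/+ INZ, 11.32, 11.62 and 11.24 in p53-/- DMSO and 10.92, 11.17 and 10.79 in p53-/- INZ arrays. INZ arrays lay below DMSO arrays in both genotypes, with log2 differences of -0.71 (95% CI -1.38 to -0.03, adjusted p = 0.327) and -0.43 (-1.11 to 0.24, adjusted p = 0.599) that did not pass. In p53+/+ cells the first of these was -0.52 without the array labelled p53+/+ DMSO replicate 1 and, with p53+/+ INZ replicate 3 left out, -0.38, and it ranged from -0.91 to -0.16 over the alternatives (adjusted p up to 0.917), the smallest being with the lower quartile as a covariate. The level of NM_000077 stayed within -0.20 to 0.23 log2 units of that of NM_058195, the ARF transcript, on every array, so these features do not separate p16 from ARF. NM_058195 read 11.89, 11.60 and 11.06 in p53+/+ DMSO, 10.93, 11.24 and 10.21 in p53+/+ INZ, 11.13, 11.77 and 11.33 in p53-/- DMSO and 10.82, 10.94 and 10.57 in p53-/- INZ arrays, with log2 differences of -0.72 (adjusted p = 0.335) and -0.63 (adjusted p = 0.430). In p53+/+ cells this was -0.54 without the array labelled p53+/+ DMSO replicate 1 and, with p53+/+ INZ replicate 3 left out, -0.43, with a range of -0.95 to -0.16 over the alternatives. The third feature, NM_058197, read 6.24 to 7.39 in p53+/+ cells and 6.07 to 7.36 in p53-/- cells. With INZ its level differed by -0.47 log2 units in p53+/+ cells (95% CI -1.08 to 0.13, adjusted p = 0.461) and -0.87 in p53-/- cells (-1.48 to -0.27, adjusted p = 0.161), where the groups did not overlap. The p53+/+ value was -0.26 without the array labelled p53+/+ DMSO replicate 1 and, with p53+/+ INZ replicate 3 left out, -0.35. All 3 features had a negative difference in both genotypes and 0 of these 6 values passed.

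CDKN2B encodes p15, a gene known to respond to TGF-beta, and its 1 feature (NM_004936) was dim, between 4.98 and 6.14. With INZ it read 5.65, 5.87 and 5.64 in p53+/+ cells, against 5.20, 5.01 and 5.10 in p53-/- cells, groups that did not overlap but whose log2 difference of 0.62 (95% CI 0.02 to 1.21, adjusted p = 0.469) did not pass. CDKN2D encodes p19 of the INK4 family, which is not the ARF protein. Its feature NM_001800 read 9.64, 9.15 and 8.94 in p53+/+ DMSO, 9.99, 10.33 and 9.19 in p53+/+ INZ, 9.44, 9.82 and 9.36 in p53-/- DMSO and 9.83, 9.77 and 9.28 in p53-/- INZ arrays. The groups overlapped in every comparison. INZ and DMSO differed by 0.60 log2 units in p53+/+ cells (95% CI -0.11 to 1.31, adjusted p = 0.434) and 0.09 in p53-/- cells (-0.62 to 0.80, adjusted p = 0.942). The second feature, NM_079421, gave 0.56 (adjusted p = 0.506) and 0.10 (adjusted p = 0.944), and the first stayed within -0.47 to 0.20 log2 units of it on every array. In p53+/+ cells the differences were 0.79 and 0.87 without the array labelled p53+/+ DMSO replicate 1 and, with p53+/+ INZ replicate 3 left out, 0.92 and 0.93, the lowest INZ array, and neither passed.

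**Figure D3:**
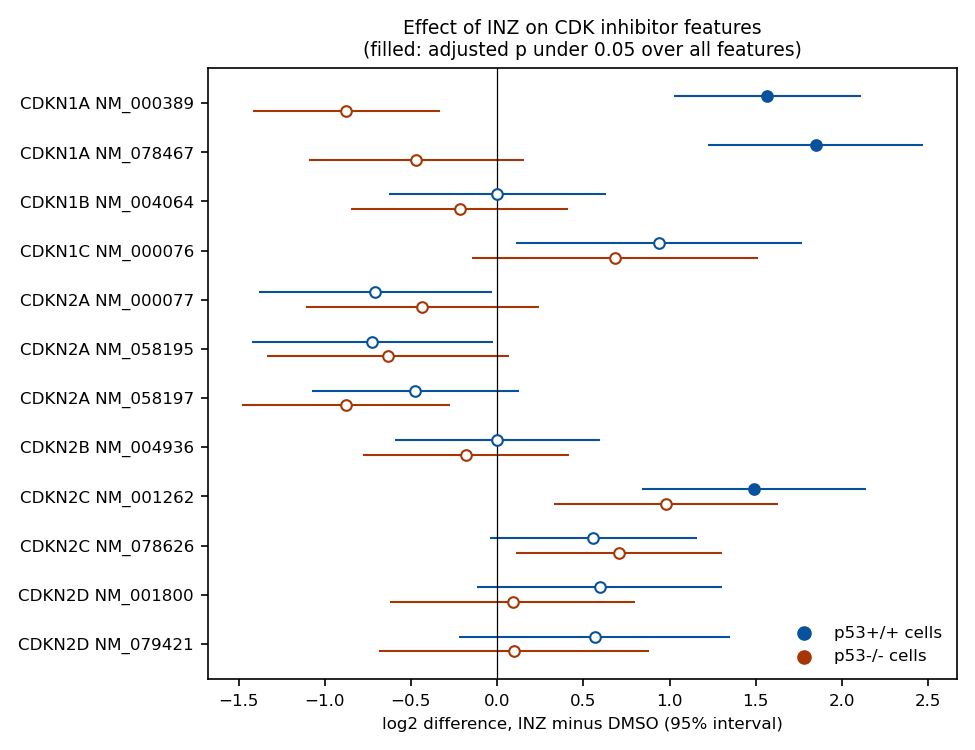
Log2 difference of INZ minus DMSO for the 12 features of CDK inhibitor genes, in p53+/+ cells (blue) and p53-/- cells (brown), with 95% confidence intervals from limma. Filled points passed an adjusted p of 0.05 over all features, which held for both CDKN1A features and CDKN2C NM_001262 in p53+/+ cells and for 0 of 12 features in p53-/- cells.

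Across the 12 member features, the median log2 difference with INZ was 0.56 in p53+/+ cells, beside -0.03 over all features, and -0.20 in p53-/- cells, beside -0.03. In p53+/+ cells 4 of 12 features (CDKN1A and CDKN2C, both features of each) lay higher with INZ with no overlap, beside 7.39% of all features, and 1 (CDKN2A NM_000077) lay lower, beside 8.51%. In p53-/- cells 2 of 12 (CDKN2C) lay higher, beside 13.3%, and 4 (3 of CDKN2A and 1 of CDKN1A) lay lower, beside 12.5%. The 1 lower feature in p53+/+ cells and the 2 higher ones in p53-/- cells are near these shares, so those counts do not set the members apart. CDKN2A NM_000077 was separated in p53+/+ cells only narrowly (INZ up to 11.19, DMSO from 11.21), and it passed in neither genotype. CDKN1A was on the higher side in p53+/+ cells and, on 1 feature, on the lower side in p53-/- cells. CDKN2C was on the higher side in both, and passed on 1 feature in p53+/+ cells only. Features of 1 gene are not separate observations, so these counts stand for few genes.

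Genes with the most similar pattern were taken for each member gene above the median feature, by Pearson r of log2 values over the 12 arrays among 9302 genes, as a description across arrays that fall into 4 groups. For CDKN1A (NM_078467) they were CHST14 (r = 0.974), ZNF672 (0.952), DDB2 (0.949), TP53I3 (0.946) and CYSRT1 (0.944), of which DDB2, a sensor of damaged DNA, and TP53I3, an oxidoreductase gene, are known p53 targets. For CDKN2C (NM_001262) they were GCH1 (0.962), the entry enzyme of tetrahydrobiopterin synthesis, IPO13 (0.952), an importin, and GEM (0.944), a small GTPase. The closest to CDKN2A (NM_000077) were SURF6 (0.968), LSM8 (0.948) and ELP5 (0.942), which are known for roles in ribosome assembly, RNA processing and tRNA modification. CDKN1C was closest to RRAS (0.946), CASP9 (0.911) and ZFYVE1 (0.886), and CDKN2D (NM_079421) to CMC2 (0.935), CENATAC (0.909) and GJC1 (0.887).

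The kinases and cyclins that the inhibitors act on were measured for 12 of 14 genes, with 1 feature per gene, the brightest. With INZ, 0 of 12 passed in p53+/+ cells (median log2 difference 0.07, beside -0.01 over all genes) and 1 fell in p53-/- cells (median 0.13, beside -0.03). That gene was CCND1, which encodes cyclin D1, at 12.49, 12.63 and 12.75 with DMSO and 11.50, 11.51 and 11.09 with INZ in p53-/- cells, a log2 difference of -1.26 (95% CI -1.85 to -0.66, adjusted p = 0.0380). This call needed each of the 6 p53-/- arrays (adjusted p up to 0.186 with 1 left out). In p53+/+ cells the difference of CCND1 was -0.44 (adjusted p = 0.487). CDK2, the partner of cyclins E and A, stood at 1.44 (adjusted p = 0.204) and 1.27 (adjusted p = 0.252) in p53+/+ and p53-/- cells and did not pass. CDC25A, the phosphatase that activates CDK2, stood at 0.57 (adjusted p = 0.315) and 0.83 (adjusted p = 0.124), and CCNE1 (cyclin E1) at 0.68 and 0.36. Without the array labelled p53+/+ DMSO replicate 1 the p53+/+ values of CDK2, CDC25A and CCNE1 were 1.21, 0.58 and 0.66. Without p53+/+ INZ replicate 3 they were 0.81, 0.59 and 0.34. Between genotypes with INZ, where 218 of 45033 features passed, CDK6 was the 1 gene of this list that passed. It was lower in p53+/+ cells by a log2 difference of -1.57 (adjusted p = 0.0308 by limma). The call held in 11 of 21 alternatives. It was lost without p53+/+ INZ replicate 1 or 2, p53-/- DMSO replicate 2 or any p53-/- INZ array (adjusted p up to 0.167). With DMSO, CDK6 was also lower in p53+/+ cells, at -1.18 (95% CI -1.82 to -0.55, adjusted p = 0.170), which did not pass. Its INZ differences were -0.11 in p53+/+ and 0.27 in p53-/- cells.

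Among the pocket proteins, E2F factors and DREAM subunits, which act downstream of the kinases, 18 of 19 genes were measured. In p53+/+ cells 1 rose and 0 fell with INZ (median log2 difference 0.64, beside -0.01 over all genes), and 14 of 18 values were above 0. The gene that rose was E2F7, an E2F factor that represses transcription, at 7.71, 6.27 and 7.82 with DMSO and 9.28, 9.41 and 8.80 with INZ (log2 difference 1.90, 95% CI 1.10 to 2.70, adjusted p = 0.0319). It passed in 8 of 21 alternatives, and the call was lost without any 1 of 10 arrays (adjusted p up to 0.110 and log2 differences of 1.40 to 2.18), among them p53+/+ DMSO replicate 2, its lowest array. E2F7 in p53-/- cells stood at 0.21 (adjusted p = 0.859), and the test of the difference between genotypes did not pass (1.68, adjusted p = 0.841). In p53-/- cells 14 of 18 values were above 0 as well (median 0.33, beside -0.03), 0 genes fell and 1 gene rose. It was RB1, the retinoblastoma gene, a dim feature at 5.75, 5.35 and 5.78 with DMSO and 7.23, 7.74 and 7.23 with INZ (log2 difference 1.77, adjusted p = 0.0198), and its call needed each of the 6 p53-/- arrays (up to 0.115 with 1 left out). In p53+/+ cells RB1 stood at 1.04 (95% CI 0.30 to 1.79, adjusted p = 0.192), and the difference between genotypes did not pass (-0.73). E2F8, another repressor, stood at 2.29 (adjusted p = 0.0558) and 2.09 (adjusted p = 0.0617), and MYBL2, which joins the DREAM core in S phase, at 1.43 and 1.46, without passing. Without the array labelled p53+/+ DMSO replicate 1 the p53+/+ values of RB1, E2F8 and MYBL2 were 0.89, 1.80 and 0.93. Without p53+/+ INZ replicate 3 they were 0.71, 1.79 and 0.85. In p53+/+ cells 6 of 18 genes and in p53-/- cells 4 of 18 were under an unadjusted p of 0.05, beside 15.6% and 14% of all named genes.

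E2F target genes of S phase entry were all measured, 22 of 22. In p53+/+ cells 1 rose and 1 fell with INZ, with 16 of 22 values above 0 (median log2 difference 0.55, beside -0.01 over all genes). The gene that rose was PCNA, the sliding clamp of DNA polymerases and itself known as a p53 target, at 11.70, 12.18 and 12.92 with DMSO and 13.99, 13.70 and 14.13 with INZ (log2 difference 1.67, adjusted p = 0.0457). It passed in 4 of 21 alternatives and was lost without any 1 of 11 arrays (adjusted p up to 0.153), including the array labelled p53+/+ DMSO replicate 1. CHAF1A, a subunit of the histone chaperone CAF-1, fell in both genotypes. It read 11.86, 11.29 and 11.50 with DMSO and 10.10, 10.30 and 9.82 with INZ in p53+/+ cells (log2 difference -1.48, adjusted p = 0.0493), and 11.51, 11.35 and 11.52 against 9.59, 9.24 and 8.34 in p53-/- cells (-2.40, adjusted p = 0.00228). Only the p53-/- call held in all 21 alternatives, while the p53+/+ call held in 4 and was lost without any 1 of 11 arrays (adjusted p up to 0.158). The flap endonuclease gene FEN1 rose in p53-/- cells, at 11.99, 11.25 and 11.66 with DMSO and 13.17, 13.11 and 13.11 with INZ (log2 difference 1.49, adjusted p = 0.0310), a call that needed each of the 6 p53-/- arrays (up to 0.161 with 1 left out). In p53+/+ cells FEN1 stood at 1.28 (95% CI 0.61 to 1.96, adjusted p = 0.0817), and the difference between genotypes was -0.21 (95% CI -1.16 to 0.75), which did not pass. The list median in p53-/- cells was 0.24, beside -0.03, with 15 of 22 values above 0. MCM4, a subunit of the replicative helicase, stood at 1.41 in p53-/- cells (adjusted p = 0.0711) and at 0.68 in p53+/+ cells (adjusted p = 0.407). Without the array labelled p53+/+ DMSO replicate 1 the p53+/+ values of FEN1 and MCM4 were 1.00 and 0.48. Without p53+/+ INZ replicate 3 they were 1.11 and 0.34. At an unadjusted p under 0.05 were 10 of 22 genes in p53+/+ and 8 of 22 in p53-/- cells, beside 15.6% and 14% of all named genes with 1 feature each.

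Genes of ubiquitin ligases that degrade the inhibitors, and of proteins that work with these ligases, were measured for 12 of 12. None passed with INZ in either genotype by limma (median log2 differences 0.06 and 0.23, beside -0.01 and -0.03). Under an unadjusted p of 0.05 was 1 of 12 in each, beside 15.6% and 14% of all named genes. The range was -0.75 for RBX1 to 0.67 for UBE2C in p53+/+ cells. In p53-/- cells it was -0.58, again for RBX1, to 0.85 for DDB1, the adaptor of CUL4 ligases. For the cullin genes the p53+/+ and p53-/- values were 0.09 and 0.50 for CUL1 and -0.56 and 0.22 for CUL4B. Without the array labelled p53+/+ DMSO replicate 1 the p53+/+ values of RBX1, UBE2C, CUL1 and CUL4B were -0.59, 0.62, -0.13 and -0.30. Without p53+/+ INZ replicate 3 they were -0.38, 0.74, -0.25 and -0.73, so the sign for CUL1 depended on these arrays. Of the transcriptional regulators of the inhibitor genes 19 of 19 were measured and none passed, with 7 of 19 under an unadjusted p of 0.05 in p53+/+ and 1 of 19 in p53-/- cells, beside the same 15.6% and 14% (medians 0.31 and 0.14). EZH2, the methyltransferase of Polycomb that silences CDKN2A in many cells, stood at 2.22 in p53+/+ cells (95% CI 1.00 to 3.45, adjusted p = 0.0970). Its DMSO arrays there read 5.00, 6.87 and 8.06, the lowest being the array labelled p53+/+ DMSO replicate 1, and without that array the difference was 1.40 (adjusted p = 0.215). BRCA1 stood at 1.09 in p53+/+ and 0.08 in p53-/- cells, TFAP2A at 1.45 and 1.51, FOXO4 at 0.88 and 0.81 and SMAD2 at 0.23 and -0.59, none of which passed. Without the array labelled p53+/+ DMSO replicate 1 their p53+/+ values were, in that order, 0.57, 0.98, 0.74 and 0.46. Without p53+/+ INZ replicate 3 they were 1.11, 0.89, 0.44 and 0.17. No gene of the 5 lists passed the test of the difference between genotypes in the INZ effect.

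**Figure D4:**
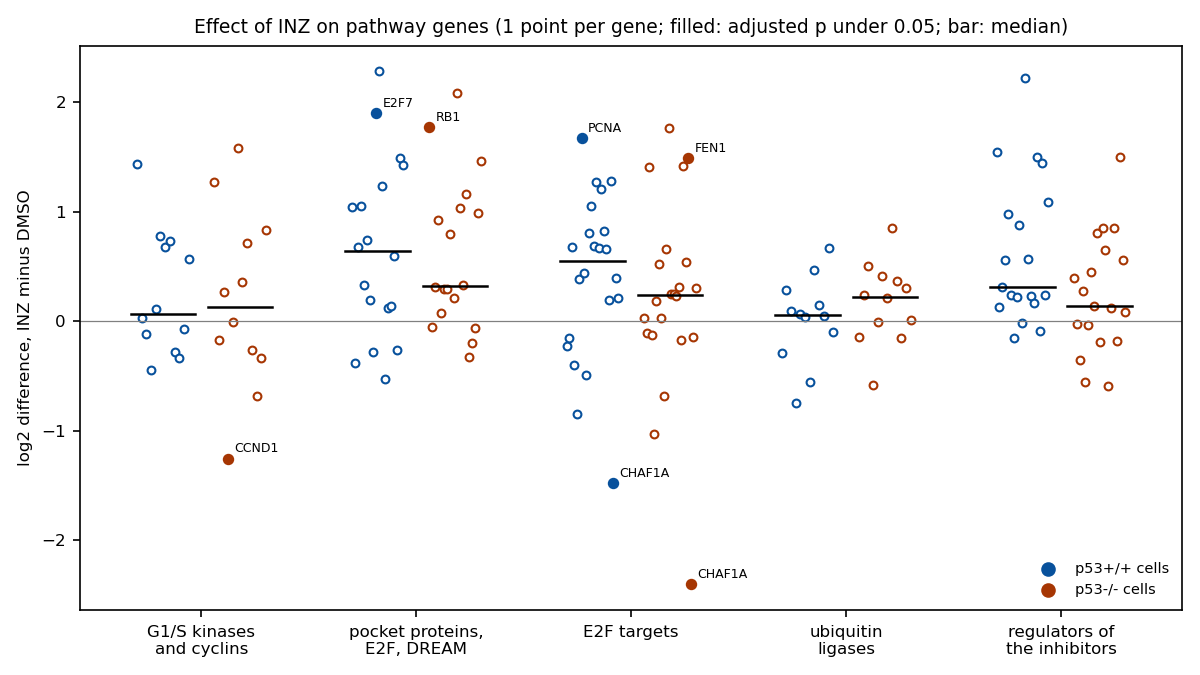
Log2 difference of INZ minus DMSO for genes around the CDK inhibitors (1 point per gene, spread sideways for legibility), in p53+/+ cells (blue) and p53-/- cells (brown), by list, with the list median as a bar. Filled and named points passed an adjusted p of 0.05 over all features. They are E2F7, PCNA and CHAF1A in p53+/+ cells and CCND1, RB1, FEN1 and CHAF1A in p53-/- cells.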

How the data were processed

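Total RNA from HCT116 p53+/+ and p53-/- cells was hybridised in one colour (Cy3) to 12 NimbleGen arrays, 3 per group. The authors deposited a single table of RMA intensity values on a linear scale (16.2 to 61942), which are background-corrected, normalised between arrays and summarised per feature. The RMA version and the genome build of the array are in none of the sources used here. Values were log2-transformed with no pseudocount. Of 45033 features, 18188 were named through the platform table and 678 through their RefSeq accession (both CDKN2C features), and 26167 were tested without a name. A further check of the labels, which went against that of p53+/+ DMSO replicate 1, is not reported here, so every p53+/+ DMSO mean is open to that doubt. The table holds no detection calls, and the small number of arrays limits precision.

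A linear model in limma 3.58.1 (R 4.3.3) gave each group a mean, with all 12 arrays sharing a spread and no covariate. Benjamini-Hochberg adjustment of P ran over all 45033 features with a threshold of 0.05, and confidence intervals (CI) are 95%. The alternatives were a variance trend, a filter on dim features, quantile normalisation, median centring, the replicate number as a block, only the 6 arrays compared, array weights, the lower quartile as a covariate, each array left out in turn, and 2 arrays left out together. The fit was tested on simulated data. All member features are described. In each pathway list the 3 genes with the smallest p in each INZ comparison are named, and genes that passed. CDK6, which passed between genotypes only, was added after its values were seen. Members and lists were chosen with earlier results of these data known. Nothing in the sources says more of the replicates than that they are biological, so p values measure the spread between these arrays. Promoter sequences are from RefSeq (GRCh38.p14), cut to the bases before the start, and a promoter window for CDKN1C was not used here. Plots used matplotlib 3.10.9 (Python 3.11.15).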

Additional observations from a re-analysis of the deposited data

Results flagged for a closer look

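The response of CDKN1A to INZ differed between p53+/+ and p53-/- cells by a test of the difference itself, by 2.44 log2 units on NM_000389 (95% CI 1.68 to 3.21, adjusted p = 0.0465). All 3 p53+/+ INZ arrays lay above all 3 p53+/+ DMSO arrays, and all 3 p53-/- INZ arrays lay below all 3 p53-/- DMSO arrays. The call was lost without any 1 of the 12 arrays (2.33 to 2.57, adjusted p 0.0808 to 0.207), and without the array labelled p53+/+ DMSO replicate 1 the value was 2.39 (adjusted p = 0.101). The second CDKN1A feature gave 2.32 and did not pass.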

How the results depend on the processing

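Of all 60 log2 differences of member features, 21 changed sign under at least 1 of up to 21 alternatives (65 of 1238 values), and none of these passed the test in the fit reported or in the alternative. The largest of the 21 as reported was 0.43 in size. Of the differences in the text, 41 were followed over the alternatives, 8 of them values of list genes that passed. Among these 41, 4 changed sign. They include CDKN2A NM_000077 in p53-/- cells (0.08 with the lower quartile as a covariate) and the difference between genotypes for CDKN2C NM_078626. The latter was 0.13 without the 2 least typical arrays, the one labelled p53+/+ DMSO replicate 1 with p53+/+ INZ replicate 3. With 1 array left out it was -0.33 to 0.05. The others were CDKN2D in p53-/- cells (with 1 array left out, -0.01 to 0.27 for NM_001800 and -0.05 to 0.28 for NM_079421, among them -0.01). List-gene values that did not pass are outside this count. Among those, CUL1 in p53+/+ cells changed sign without either of the 2 least typical arrays (-0.13 and -0.25). The count of member features that passed with INZ in p53+/+ cells, 3, became 0 with the lower quartile as a covariate, 0 with only the 6 arrays compared, 0 without the 2 least typical arrays, and 0 to 3 when 1 array was left out, with 0 without p53+/+ INZ replicate 1. In p53-/- cells the count of 0 became 3 with array weights (CDKN1A NM_000389, CDKN2C NM_001262 and CDKN2A NM_058197), 1 with only the 6 arrays compared (CDKN2C NM_001262) and 1 with a variance trend (CDKN1A NM_000389). For the difference between genotypes the count of 1 became 2 with a variance trend, 0 without the 2 arrays, and 0 without any 1 array. Whether the numbers pair the arrays is not settled by correlations of deviations from the group means, with 3 arrays per group. Between DMSO and INZ, same-numbered p53+/+ arrays correlated at -0.119 to 0.332 and differently numbered ones at -0.359 to 0.281. For p53-/- arrays the ranges were -0.135 to 0.0331 and -0.101 to 0.209. Between genotypes they were -0.13 to 0.314 and -0.262 to 0.189. With the replicate number as a block the counts were 2 in p53+/+ cells, 0 in p53-/- cells and 0 for the difference (2.44, adjusted p = 0.115, for CDKN1A NM_000389). The causes were not tested. Fewer arrays leave fewer degrees of freedom, and the part of this was not tested either. The comparison of genotypes with INZ kept its count of 2 throughout. Dim features have no value under the filter on dim features, and the difference between genotypes has none with only 6 arrays.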
